A study of Mus musculus with 8 samples.

Results

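Mif, Ddt and Cd74 encode a cytokine, its closest homologue and the receptor chain that both bind, and were taken as the rows of the deposited table with these symbols, 3 of 48500 genes. Mif was chosen for its lower FPKM in Nynrin-KO than in WT in these same 8 libraries, so its levels are given as a description with no test. Ddt and Cd74 joined it by family and by receptor role. RNA came from about 10000 leukaemia stem cells for each library, sorted from bone marrow by the presence of GFP and of c-Kit and by the lack of Gr-1, in mice with acute myeloid leukaemia (AML) driven by HOXA9 and MEIS1. The 4 Nynrin-KO libraries (KO1 to KO4) came from leukaemia lacking both copies of Nynrin (Nynrin-/-), and the 4 WT libraries (WT1 to WT4) from leukaemia with both copies (Nynrin+/+), and both groups carried the HOXA9/MEIS1 drive. The comparison asks how the transcripts of such cells differ without Nynrin, a gene with a predicted RNase domain. The sources used here name neither age nor strain, do not say which part of Nynrin was deleted, and leave unstated whether each library is from another mouse. A p-value therefore covers only the spread among these 8 libraries, which may be technical.

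MIF, the macrophage migration inhibitory factor, is a small cytokine that many cells hold preformed and release on stimulation. It binds CD74 at the cell surface, and CD74 signals together with CD44 through SRC family kinases, SYK and the ERK kinases, while the chemokine receptors CXCR2, CXCR4 and ACKR3 serve as further receptors. DDT, D-dopachrome tautomerase, shares the fold of MIF and also binds CD74, and CD74 itself is better known as the invariant chain that escorts MHC class II molecules to the endosome. In human AML, blasts are known to release MIF within the bone marrow.

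The libraries held 1826954 to 28700575 reads in Nynrin-KO and 1962511 to 33087361 reads in WT, as recovered from the deposited FPKM values (fragments per kilobase of transcript, scaled to the depth of the library), with KO3 and WT3 the shallowest. Of 12524 genes tested with limma across all 8 libraries, 3488 (27.9%) passed an adjusted p of 0.05, 1754 (14%) higher and 1734 (13.8%) lower in Nynrin-KO. Nynrin itself stood at 0.0982 to 0.437 FPKM in Nynrin-KO and at 0.008 to 0.286 FPKM in WT, from no more than 37 reads in any library, and so does not check the labels. Other properties of the libraries also varied, and several of them moved with the groups. The RNA of the inactive X chromosome, Xist, stood at 0.0175 to 12.7 FPKM in Nynrin-KO and at 15.2 to 26.5 FPKM in WT, and KO1 held both Xist and the Y-linked Ddx3y (2.18 FPKM), and with this exception sex and genotype cannot be told apart. The satellite-like gene model Gm10800 overlapped between the groups, at 3349 to 126894 FPKM in Nynrin-KO and 6076 to 142258 FPKM in WT. Its levels were lowest in the 3 deepest libraries. Of 12 mature neutrophil markers 7 rose and none fell, although Gr-1-positive cells had been gated out. Their summed levels were 124288 to 281473 FPKM in Nynrin-KO and 2986, 80820, 55298.5 and 104165 FPKM in WT1 to WT4. WT1 thus lay far below the other WT libraries. T and NK cell markers summed to 98.7 to 226 FPKM in Nynrin-KO and 0.927 to 10.6 FPKM in WT, most of it in Nynrin-KO from Nkg7 alone (94.5 to 223 FPKM), the only 1 of the 7 to pass the filter, and the T cell receptor gene Trac stood at no more than 0.545 FPKM in any library. Erythroid markers summed to 8.78 to 47.5 FPKM in Nynrin-KO and 0.163 to 1.78 FPKM in WT, and the 3 of 6 that passed the filter did so through the Nynrin-KO libraries alone. Of 8 markers of the sorted stem and progenitor cells, all of which passed the filter, Hoxa9 and Meis1 rose (log2 differences 1.08 and 1.33, limma adjusted p = 0.0397 and 0.00466). Meis1 passed the filter through the Nynrin-KO libraries alone. Hoxa9 and Meis1 are also the genes that drove this leukaemia. Whether their reads come from the driving copies or from the cells' own genes cannot be told from these values. From the same list Cd34, Mpo and Prtn3 fell (-3.48, -0.98 and -1.65, limma adjusted p = 0.000929, 0.0459 and 0.0103). Elane, Kit and Myb had log2 differences of 1.02, -0.3 and -0.35, short of the threshold (limma adjusted p = 0.101, 0.405 and 0.366). Kit was low in both groups, at 2.92 to 4.91 FPKM in Nynrin-KO and 2.63 to 6.4 FPKM in WT, and Cd34 stood at 5.54 to 7.3 FPKM in Nynrin-KO and 55.7 to 151 FPKM in WT. Their part in the results on Mif, Ddt and Cd74 was not tested. In bulk RNA, fewer cells of a type and less RNA per cell cannot be told apart.

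Mif (ENSMUSG00000033307) lies on the minus strand of mm10 chromosome 10, 75859353 to 75860240, and was the most abundant of the 3 genes in every WT library. Its level was 51.7, 58, 24.6 and 52 FPKM in KO1 to KO4, from 294, 803, 27 and 896 reads. In WT1 to WT4 it was 761, 331, 308 and 298 FPKM, from 15103, 1406, 363 and 3079 reads. The groups did not overlap: the highest Nynrin-KO library, KO2, lay well below the lowest WT library, WT4. WT1 stood above the other WT libraries, which lay close together, and KO3, with the fewest reads, was the lowest of all 8. Group means were 46.6 ± 14.9 FPKM in Nynrin-KO and 424 ± 225 FPKM in WT (SD, n = 4 each), a difference of -3.11 on the log2(FPKM + 1) scale, or 8.62-fold higher in WT on that scale. Groups that do not overlap, with Nynrin-KO below WT, were found for 15% of all genes tested, and since Mif was picked for this difference nothing is read from this.

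**Figure D1:**
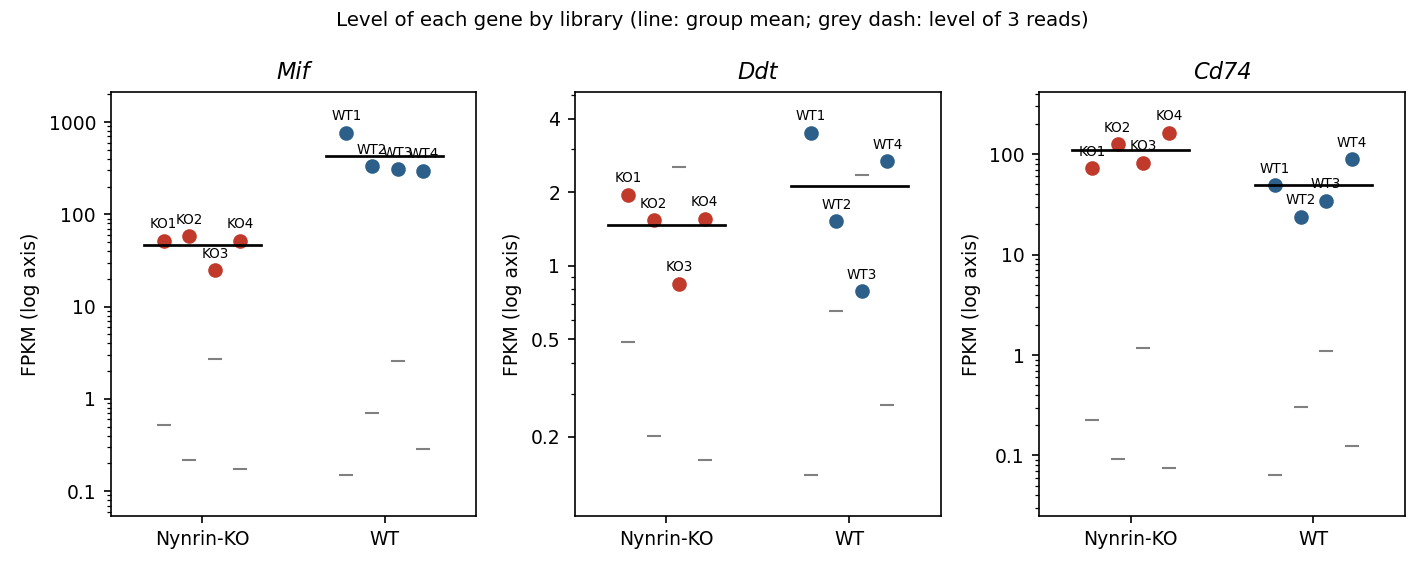
FPKM of Mif, Ddt and Cd74 in each library on a log axis, with a point for each library, a black line at the group mean and a grey dash at the level that 3 reads give in that library. The 4 Nynrin-KO libraries lie below every WT library for Mif, the groups overlap for Ddt and Cd74, and the Ddt points of KO3 and WT3 lie under their 3-read dashes.

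The place of Mif within each library restates the same FPKM values without scaling between libraries. Ranked by FPKM among all genes of its own library, Mif was at positions 702, 768, 1300 and 860 in KO1 to KO4. In WT1 to WT4 it was at positions 119, 203, 199 and 211. Mif was therefore nearer the top of every WT library than of any Nynrin-KO library. The ratio of Mif to Cd74 FPKM was 0.714, 0.463, 0.301 and 0.32 in KO1 to KO4, against 15.5, 13.8, 8.98 and 3.34 in WT1 to WT4. Cd74 thus had more FPKM than Mif in each Nynrin-KO library and less in each WT library. The ratio of Mif to Ddt was 26.5 to 37.8 in Nynrin-KO and 111 to 393 in WT, where the values of KO3 and WT3 rest on 1 read of Ddt.

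**Figure D2:**
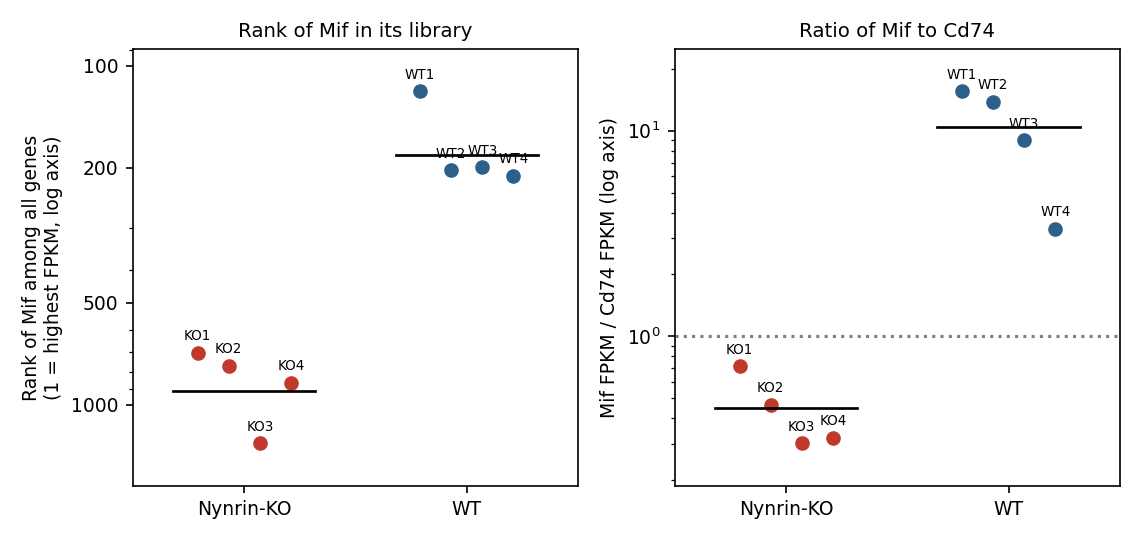
Left, the rank of Mif by FPKM among all genes of each library (log axis, inverted so that higher levels are at the top); right, the ratio of Mif to Cd74 FPKM in each library (log axis, dotted line at equal levels). Points are libraries and black lines are group means; ranks run from 702 to 1300 in Nynrin-KO and from 119 to 211 in WT, and the ratio lies below 1 in each Nynrin-KO library and above 1 in each WT library.

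Set against the other genes as a description, the difference of Mif was far out in the distribution. Of 12524 genes tested, 9 had a difference as low as that of Mif or lower, Mif included, while the median of all genes was -0.03. Abundant genes as a class were lower in Nynrin-KO: of 544 genes with a WT mean of at least 100 FPKM, 300 (55.1%) fell and 23 (4.23%) rose, with a median difference of -1.01, and 3 of them, Mif included, lay at or below the difference of Mif. This class was picked on its WT level, which by itself favours lower values in the other group. Short coding genes also differed from long ones. Of 522 coding genes with a longest transcript of up to 1000 bases, 28.9% fell and 7.85% rose, while of 8803 longer ones 12.3% fell and 17.3% rose. Mif, with transcripts of up to 600 bases, belongs to both the abundant and the short class, and the part of transcript length in its difference was not tested.

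The mouse genome holds processed copies of Mif, and the sources used here do not say how reads that match several places were counted. Searching the 348-base Mif coding sequence against GENCODE M21 transcripts found 8 further gene models at 80% identity or more over at least 80% of its length, and none for Ddt. The closest were C230062I16Rik on chromosome 7, 29953621 to 29965711, with 3 differences, and Gm16379 on chromosome 9, 14845365 to 14845712, with 6. Bases 32 to 331 of the coding sequence, counted from 1 at its first base, are shown because few reads can tell these sequences apart. This stretch holds all 3 differences of C230062I16Rik and 5 of the 6 of Gm16379. Capitals in Mif mark the bases at which either copy differs from it, and capitals in each copy mark its own differences. The match in C230062I16Rik, a non-coding gene, lies antisense to that gene and is written in the direction of Mif.
Mif: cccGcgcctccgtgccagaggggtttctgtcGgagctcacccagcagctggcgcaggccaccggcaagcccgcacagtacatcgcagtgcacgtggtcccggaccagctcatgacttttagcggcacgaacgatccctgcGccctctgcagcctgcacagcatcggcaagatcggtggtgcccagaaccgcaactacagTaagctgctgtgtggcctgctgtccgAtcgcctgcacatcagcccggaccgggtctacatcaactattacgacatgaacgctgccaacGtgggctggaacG
C230062I16Rik: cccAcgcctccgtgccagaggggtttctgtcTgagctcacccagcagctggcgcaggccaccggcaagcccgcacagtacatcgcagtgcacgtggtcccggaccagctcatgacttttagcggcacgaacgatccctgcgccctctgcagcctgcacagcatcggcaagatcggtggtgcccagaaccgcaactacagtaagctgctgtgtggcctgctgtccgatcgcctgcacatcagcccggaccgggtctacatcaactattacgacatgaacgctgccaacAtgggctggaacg
Gm16379: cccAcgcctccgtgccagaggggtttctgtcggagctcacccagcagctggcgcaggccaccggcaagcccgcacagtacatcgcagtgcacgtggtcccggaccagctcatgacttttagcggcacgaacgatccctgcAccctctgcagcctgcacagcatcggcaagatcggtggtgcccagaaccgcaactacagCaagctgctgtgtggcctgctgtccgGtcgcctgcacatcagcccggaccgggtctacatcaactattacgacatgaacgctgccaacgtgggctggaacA

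Few reads were assigned to these copies. The 8 models together held 9, 24, 12 and 24 reads in KO1 to KO4, or 3.06%, 2.99%, 44.4% and 2.68% of the reads of Mif itself. In KO3, 9 of the 12 reads were on C230062I16Rik. In WT1 to WT4 they held 110, 37, 15 and 66 reads, or 0.728%, 2.63%, 4.13% and 2.14%. Except in KO3, where Mif has only 27 reads, the copies were small beside Mif, so adding their reads would leave the groups apart. Of the 8 models 3 passed the filter on low values. Gm8762 was at 0, 0, 0 and 0.206 FPKM in KO1 to KO4 and at 2.94, 3.75, 3.01 and 1.71 FPKM in WT1 to WT4 (log2 difference -1.85, SE 0.24, limma adjusted p = 0.00194), and it passed the filter through the WT libraries alone. Mif-ps3 and Gm5228 had log2 differences of -0.98 and -0.995 and did not pass the threshold (limma adjusted p = 0.213 and 0.0817). Reads may be shared between Mif and these models, so their values are uncertain and are no separate measure of Mif.

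Ddt (ENSMUSG00000001666) lies 85.9 kb away on the same strand of chromosome 10, 75771230 to 75773414, and was expressed at a low level with no detectable difference. Its level was 1.95, 1.54, 0.843 and 1.56 FPKM in KO1 to KO4, from 12, 23, 1 and 29 reads. In WT1 to WT4 it was 3.49, 1.52, 0.785 and 2.68 FPKM, from 75, 7, 1 and 30 reads. The groups overlapped throughout, and in both groups the shallowest library was the lowest, below the level that 3 reads give there (2.53 FPKM in KO3 and 2.36 FPKM in WT3). Means were 1.47 ± 0.46 FPKM in Nynrin-KO and 2.12 ± 1.2 FPKM in WT (SD, n = 4 each). The log2 difference was -0.27 (SE 0.31, 95% interval -0.97 to 0.43, limma adjusted p = 0.555). The interval reaches a value of close to -1 on the log2(FPKM + 1) scale, which understates changes at such low levels. On the recovered reads, voom gave a log2 difference of -0.78 (voom adjusted p = 0.173). A moderate or larger fall was therefore not excluded at this depth.

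The genes between and around Mif and Ddt that passed the filter had differences from -0.89 to 1.1 on the log2(FPKM + 1) scale, beside -3.11 for Mif. They stood at lower levels than Mif in every library. At low levels this scale understates changes, so these sizes cannot be compared directly with that of Mif. Of 15 other annotated genes within 100 kb of either, 7 passed the filter, of which 2 fell and 1 rose, beside 13.8% and 14% of all genes, so the 1 that rose is at the share of all genes. Smarcb1, a core subunit of the SWI/SNF chromatin remodelling complex, was at 3.83 ± 0.934 FPKM in Nynrin-KO and 7.33 ± 2.28 FPKM in WT (SD, n = 4 each, log2 difference -0.77, SE 0.23, limma adjusted p = 0.0345). Chchd10, a mitochondrial protein gene, was at 0.392 ± 0.348 FPKM in Nynrin-KO and 1.56 ± 0.46 FPKM in WT (log2 difference -0.89, limma adjusted p = 0.0382) and passed the filter through the WT libraries alone. Vpreb3, a gene of early B cells, rose, with 1.87 ± 0.742 FPKM in Nynrin-KO and 0.335 ± 0.336 FPKM in WT (log2 difference 1.1, limma adjusted p = 0.0229), and passed the filter through the Nynrin-KO libraries alone. The glutathione transferase genes Gstt2 and Gstt3 between Mif and Ddt had log2 differences of -0.26 and 0.09, and Cabin1 next to Ddt had 0.31, none past the threshold (limma adjusted p = 0.539, 0.899 and 0.264). Gm16221, a processed pseudogene, had -0.80 (limma adjusted p = 0.262). The sign for Gstt3 depends on the processing: it was -0.35 by voom and -0.26 with array weights. The call for Smarcb1 was lost without KO1, KO2, KO3, WT1, WT2 or WT4, that for Chchd10 without KO1 or KO4, and that for Vpreb3 without WT1. Without any 1 WT library Chchd10 did not pass the filter, nor did Vpreb3 without any 1 Nynrin-KO library, so those 4 settings for each gave no value.

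The windows of 250 bases before the RefSeq starts of Mif and Ddt are shown because the level of Mif differed and that of its homologue did not detectably, and because the listed regulators of Mif include factors with known sequence preferences. They lie on the minus strand of GRCm38.p6 at chr10:75860278-75860527 for Mif and chr10:75773375-75773624 for Ddt, and capitals mark matches on either strand to the motifs named after them.
Mif promoter: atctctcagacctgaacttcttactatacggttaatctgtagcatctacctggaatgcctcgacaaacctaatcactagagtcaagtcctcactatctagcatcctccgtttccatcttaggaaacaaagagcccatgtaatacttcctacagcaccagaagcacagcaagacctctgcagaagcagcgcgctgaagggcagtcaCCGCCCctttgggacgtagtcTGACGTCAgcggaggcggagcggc
Ddt promoter: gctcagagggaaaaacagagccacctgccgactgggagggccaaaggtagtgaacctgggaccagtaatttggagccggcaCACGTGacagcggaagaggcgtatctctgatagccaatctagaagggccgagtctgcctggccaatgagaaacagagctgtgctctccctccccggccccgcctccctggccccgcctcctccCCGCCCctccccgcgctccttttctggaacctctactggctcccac

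The motifs searched were the GC box GGGCGG of SP1, the cAMP response element TGACGTCA of CREB1, the E-box CACGTG, and the core ACGTG or GCGTG read by HIF1A, which overlaps the E-box. Mif held 1 GC box and 1 cAMP response element, which starts 24 bases before the RefSeq start, and no E-box or hypoxia core. Ddt held 1 GC box, no cAMP response element and 1 E-box, whose letters also give its 2 hypoxia cores. Of 32851 promoter windows of the same length, 32.7% held a GC box, 1.55% a cAMP response element, 6.02% an E-box and 38.6% a hypoxia core. A match is a description of the letters and not a bound site.

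Genes known to act on Mif transcription were mixed. Of 7 listed, all passed the filter, 3 rose and 1 fell, beside 14% and 13.8% of all genes, with a median log2 difference of 0.45 beside -0.03 for all genes. The glucocorticoid receptor gene Nr3c1 was at 10.8 ± 3.11 FPKM in Nynrin-KO and 5.43 ± 0.764 FPKM in WT (log2 difference 0.84, SE 0.23, limma adjusted p = 0.0235). Hbp1, a transcriptional repressor reported to act at the human MIF promoter, was at 18.8 ± 5.07 FPKM in Nynrin-KO and 10.4 ± 2.26 FPKM in WT (0.79, limma adjusted p = 0.0329). Uhrf1, whose human counterpart has been reported to activate MIF, was at 17.2 ± 4.52 FPKM in Nynrin-KO and 33.8 ± 10.2 FPKM in WT (-0.93, limma adjusted p = 0.0296). Sp1 rose by 0.55 (limma adjusted p = 0.036) at low levels of 2.63 ± 0.136 FPKM in Nynrin-KO and 1.49 ± 0.273 FPKM in WT. None of these 4 calls held with every library left out in turn: the number that rose was 1 without KO1 or WT2 and 0 without KO2, KO4 or WT1, and the number that fell was 0 without KO2, KO3, WT1 or WT2. Without both WT1 and KO1 no member rose or fell.

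Cd74 (ENSMUSG00000024610) lies on the plus strand of mm10 chromosome 18, 60803848 to 60812652, and its difference was in the opposite direction to that of Mif, just short of the threshold. Its level was 72.3, 125, 81.9 and 163 FPKM in KO1 to KO4, from 967, 4075, 211 and 6579 reads. In WT1 to WT4 it was 49, 24, 34.3 and 89.1 FPKM, from 2286, 239, 95 and 2165 reads. WT4 was above KO1 and KO3, and the other 3 WT libraries were below every Nynrin-KO library. Means were 111 ± 41.7 FPKM in Nynrin-KO and 49.1 ± 28.6 FPKM in WT (SD, n = 4 each), a log2 difference of 1.25 (SE 0.41, 95% interval 0.31 to 2.18, limma adjusted p = 0.0515). The call depends on the processing: over 23 alternatives the log2 difference was 0.86 to 1.63, its adjusted p was 0.00888 to 0.418, and 6 of them passed. Without WT4, the WT library with the highest level, the difference was 1.58 (limma adjusted p = 0.0158), and within the 5 libraries above 10000 FPKM for Gm10800 it was 0.86 (limma adjusted p = 0.418).

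The receptor genes of MIF differed from each other. Of 5 listed receptor genes, Cd74 included, 4 passed the filter, 2 rose and 0 fell, beside 14% and 13.8% of all genes, and their median log2 difference was 1.02 beside -0.03 for all genes. Cd44, the adhesion receptor that signals with CD74, was at 77.9, 96.6, 68.4 and 96.2 FPKM in KO1 to KO4 and at 45.1, 49.2, 42.4 and 57.8 FPKM in WT1 to WT4. Every Nynrin-KO library was above every WT library, which held for 16.7% of all genes tested, and the log2 difference was 0.79 (SE 0.19, limma adjusted p = 0.0169). The call was lost without KO2 (0.72, limma adjusted p = 0.0515) and without both WT1 and KO1 (0.79, limma adjusted p = 0.0741). Cxcr2, a chemokine receptor of neutrophils, was at 58.5, 34.4, 26.1 and 31.6 FPKM in KO1 to KO4 and at 4.68, 14.4, 8.36 and 12.2 FPKM in WT1 to WT4. The groups did not overlap, and the log2 difference of 1.86 (SE 0.35, limma adjusted p = 0.00606) kept its call with each library left out in turn and without both WT1 and KO1 (1.35, limma adjusted p = 0.0203). Cxcr2 is also on the list of mature neutrophil markers whose summed level is given above, and the part of those cells in its rise was not tested. Cxcr4, the receptor that holds stem cells in the marrow, averaged 17.8 ± 3.65 FPKM in Nynrin-KO and 17.4 ± 4.68 FPKM in WT, with a log2 difference of 0.06 (95% interval -0.51 to 0.62, limma adjusted p = 0.893) whose sign turned under 5 alternatives. Ackr3 was at 0.0707 to 0.516 FPKM in Nynrin-KO and 0 to 0.461 FPKM in WT and did not pass the filter.

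**Figure D3:**
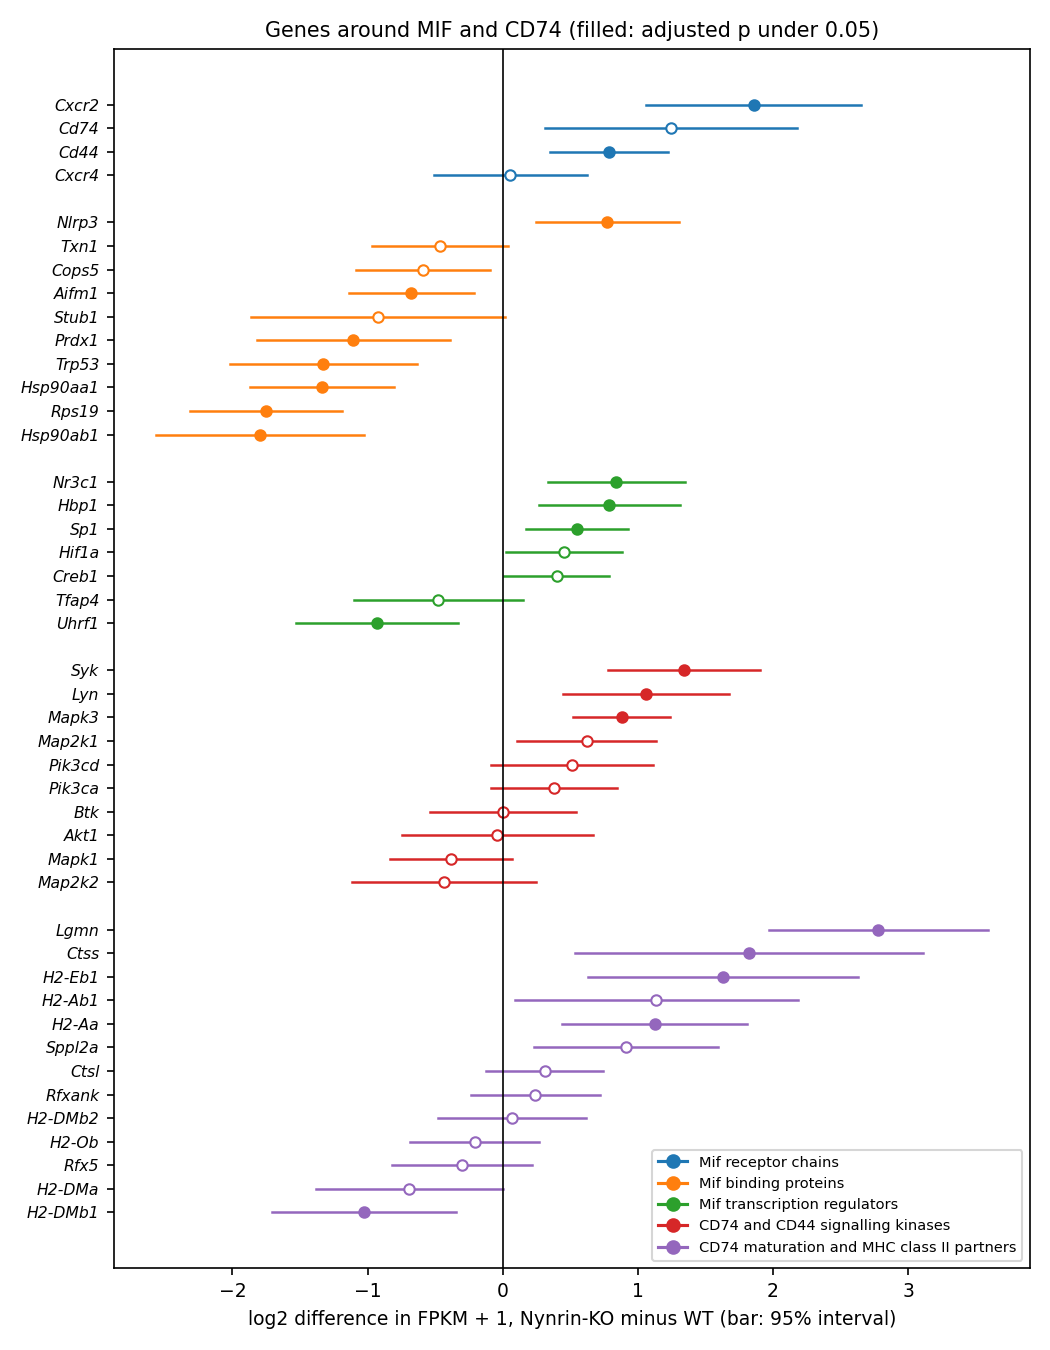
Log2 difference of FPKM + 1, Nynrin-KO minus WT, for the listed genes around MIF and CD74 that passed the filter, grouped by list and ordered within it. Bars are 95% intervals from limma with 4 libraries in each group, and filled points passed an adjusted p of 0.05. Most binding proteins lie left of 0, and Cxcr2, Cd44, Syk, Lyn and Mapk3 lie right of it.

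Kinases below CD74 and CD44 were higher or not detectably different. Of 11 listed, 10 passed the filter, 3 rose and 0 fell, again beside 14% and 13.8% of all genes, and their median log2 difference was 0.45. Syk, a tyrosine kinase, was at 19.4, 32.2, 16.9 and 29.2 FPKM in KO1 to KO4 and at 7.94, 7.75, 7.7 and 12.1 FPKM in WT1 to WT4, with a log2 difference of 1.34 (SE 0.25, limma adjusted p = 0.00556). The SRC family kinase gene Lyn was at 89.6 ± 29.2 FPKM in Nynrin-KO and 41.2 ± 8.17 FPKM in WT (1.06, limma adjusted p = 0.0199), and its call was lost without KO2, KO4 or WT2. Mapk3, which encodes ERK1, was at 14.6 ± 1.05 FPKM in Nynrin-KO and 7.53 ± 1.13 FPKM in WT (0.88, limma adjusted p = 0.00496). Syk, Lyn and Mapk3 had Nynrin-KO above WT with no overlap, as did 16.7% of all genes, and so did Map2k1, which encodes MEK1, at 31.7 to 56.3 FPKM in Nynrin-KO and 20.6 to 30.5 FPKM in WT (0.62, limma adjusted p = 0.0711). Src itself did not pass the filter, at 0 to 0.841 FPKM in Nynrin-KO and 0.0387 to 0.652 FPKM in WT. Syk, Lyn and Mapk3 are widely expressed in myeloid cells.

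Most proteins known to bind MIF had lower transcript levels. Of 11 listed, 10 passed the filter, 6 fell and 1 rose, beside 13.8% lower and 14% higher among all genes, with a median log2 difference of -1.01 beside -0.03. Rps19, a ribosomal protein that binds MIF outside the cell, was at 120, 132, 113 and 174 FPKM in KO1 to KO4 and at 652, 475, 344 and 384 FPKM in WT1 to WT4, with a log2 difference of -1.75 (SE 0.25, limma adjusted p = 0.00228). Hsp90ab1 and Hsp90aa1 encode the HSP90 chaperones that stabilise MIF in tumour cells. Hsp90ab1 was at 357 ± 146 FPKM in Nynrin-KO and 1204 ± 395 FPKM in WT (-1.80, limma adjusted p = 0.00618), and Hsp90aa1 was at 299 ± 64.5 FPKM in Nynrin-KO and 758 ± 162 FPKM in WT (-1.34, limma adjusted p = 0.00466). Trp53, the tumour suppressor whose function MIF can restrain, was at 16.2 ± 4.86 FPKM in Nynrin-KO and 42.3 ± 15.6 FPKM in WT (-1.33, limma adjusted p = 0.013), and without both WT1 and KO1 its call was lost (-1.13, limma adjusted p = 0.059). The other falls were of Prdx1, a peroxiredoxin, and Aifm1, the apoptosis-inducing factor that MIF joins as a nuclease, and the rise was of the inflammasome sensor gene Nlrp3, all named after their values were seen. Their log2 differences were -1.11, -0.68 and 0.77 (limma adjusted p = 0.03, 0.0365 and 0.0368). The number that fell was 4 to 6 with each library left out in turn and 3 without both WT1 and KO1. The rise of Nlrp3 was lost without KO1, KO2, KO4, WT1, WT2 or WT3. Rps19, both Hsp90 genes and Prdx1 belong to the abundant genes, of which 55.1% fell. Rps19 and both Hsp90 genes have related copies in the genome, so reads may be shared.

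As the invariant chain, CD74 works with MHC class II, and the genes of this pathway were mixed. Of 16 listed genes 13 passed the filter, 4 rose and 1 fell, beside 14% higher and 13.8% lower among all genes, with a median log2 difference of 0.31. The 1 that fell is near the share of all genes. H2-Aa, a class II alpha chain, was at 10.3, 15.8, 11.7 and 23.3 FPKM in KO1 to KO4 and at 6.09, 3.99, 5.69 and 9.94 FPKM in WT1 to WT4, with a log2 difference of 1.12 (SE 0.30, limma adjusted p = 0.0238). Groups of H2-Aa did not overlap, and WT4 was the highest WT library, as for Cd74. The beta chain gene H2-Eb1 was at 14.2, 21, 15.7 and 28.2 FPKM in KO1 to KO4 and at 5.47, 3.98, 2.44 and 14.9 FPKM in WT1 to WT4 (1.63, limma adjusted p = 0.0245). Its WT4 library lay above KO1 alone. H2-DMb1, part of the H2-DM molecule that loads peptide after CD74 is trimmed, was lower, at 24.5 ± 9.84 FPKM in Nynrin-KO and 47.5 ± 1.72 FPKM in WT (-1.03, limma adjusted p = 0.0324). The beta chain gene H2-Ab1 and the partner H2-DMa had log2 differences of 1.14 and -0.69, short of the threshold (limma adjusted p = 0.0996 and 0.123).

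Among the proteases that trim CD74, Lgmn and Ctss rose, and Ctsl and Sppl2a had log2 differences of 0.31 and 0.91 that did not pass (limma adjusted p = 0.256 and 0.051). Lgmn, the asparaginyl endopeptidase legumain, was at 31.1, 45, 36.9 and 68.5 FPKM in KO1 to KO4 and at 3.89, 2.91, 7.94 and 9.24 FPKM in WT1 to WT4, with a log2 difference of 2.78 (SE 0.36, limma adjusted p = 0.0019). All 4 Nynrin-KO libraries lay far above the WT libraries, and the call held with each library left out in turn and without both WT1 and KO1 (2.80, limma adjusted p = 0.0127). Ctss, cathepsin S, named after its values were seen, was at 353, 2300, 1504 and 1481 FPKM in KO1 to KO4 and at 307, 187, 364 and 552 FPKM in WT1 to WT4 (1.82, SE 0.57, limma adjusted p = 0.042). KO1 lay within the WT range and the other 3 Nynrin-KO libraries above it. Ciita, the master regulator of class II genes and of Cd74, did not pass the filter, at 0.296 to 0.824 FPKM in Nynrin-KO and 0.193 to 0.594 FPKM in WT. The number of genes in this pathway that rose was 1 without KO2, KO4, WT1 or WT2. The calls of H2-Aa and H2-Eb1 were lost in each of these settings. Without both WT1 and KO1 the number was 3. There too H2-Aa (1.28, limma adjusted p = 0.0602) and H2-Eb1 (1.77, limma adjusted p = 0.0804) lost their calls. Those 3 therefore include a gene not called with all libraries. The number that fell was 0 without KO1, WT1, WT2, WT3 or WT4 and 0 without both WT1 and KO1.

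**Figure D4:**
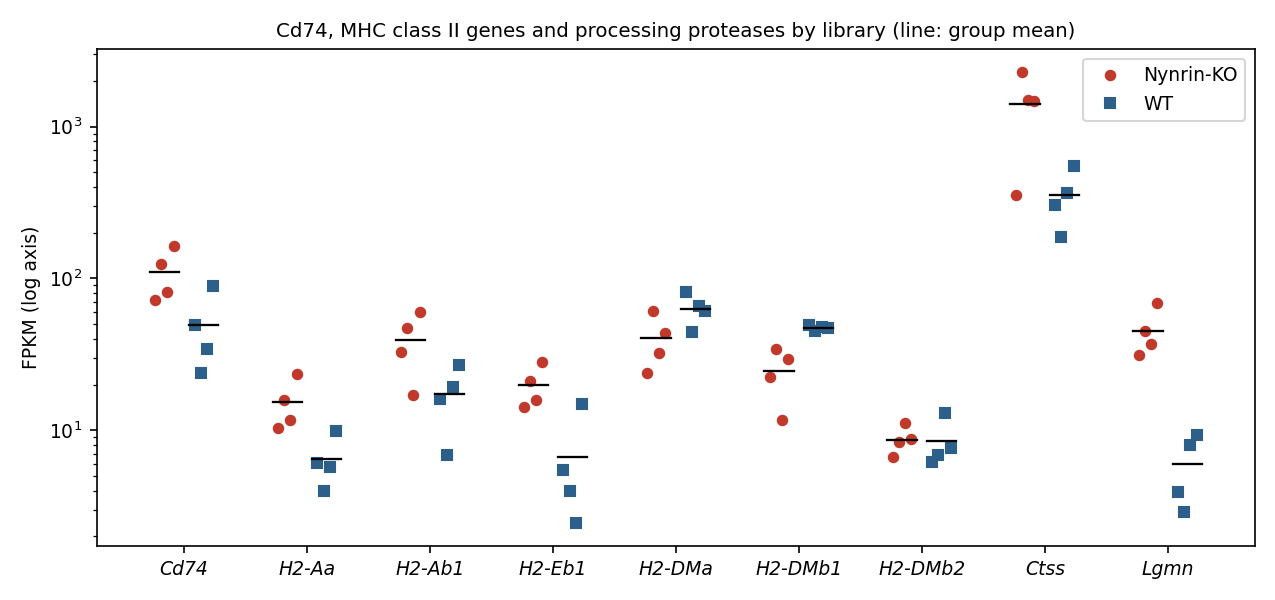
FPKM on a log axis of Cd74, 6 MHC class II genes and the proteases Ctss and Lgmn in each library, with Nynrin-KO as red circles left of WT as blue squares and black lines at group means. H2-Aa and Lgmn have groups that do not overlap with Nynrin-KO above WT, H2-DMb1 has Nynrin-KO below WT, and Ctss has KO1 within the WT range.

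CD74 and class II are typical of B cells, dendritic cells and macrophages, so the defining markers of these cells were read beside them. Of 10 monocyte and macrophage markers, all of which passed the filter, 5 rose and none fell, beside 14% and 13.8% of all genes. Those that rose were C1qa, C1qb, C1qc, Vcam1 and Mertk (the last through the Nynrin-KO libraries alone). Adgre1 and Cd68 had log2 differences of -0.02 and -0.11, short of the threshold. Ccr2, Ly6c2 and Csf1r had 0.19, 0.39 and 1.3, also short of it. The list summed to 1812 to 3881 FPKM in Nynrin-KO and 1310 to 2529 FPKM in WT, most of it from Ly6c2. The complement gene C1qa stood at 15.3 to 20.8 FPKM in Nynrin-KO and 0.98 to 2.5 FPKM in WT. Of 7 B cell markers 5 passed the filter, 1 rose and none fell, and the 1 that rose is near the 14% of all genes. It was Cd79a, with 2.63 to 8.51 FPKM in Nynrin-KO and 0.0398 to 0.7 FPKM in WT, and it entered through the Nynrin-KO libraries alone. The summed level of the B cell list was 169.9 to 198 FPKM in Nynrin-KO and 162 to 259 FPKM in WT, most of it from Ighm. Pax5, the factor that sets B cell identity, was at no more than 0.342 FPKM in any library. Of 8 dendritic cell markers 3 passed the filter, none rose and 1, Flt3, fell, beside 14% and 13.8% of all genes. The list summed to 12 to 16.6 FPKM in Nynrin-KO and 15.2 to 49.5 FPKM in WT. Most of the WT sum was from Flt3 (9.8 to 46.9 FPKM). Itgax and Cd209a had log2 differences of 0.89 and 0.28, short of the threshold (limma adjusted p = 0.0612 and 0.672). No listed marker of these 3 cell types was at 0 in all 8 libraries, and their part in the difference of Cd74 was not tested.

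The genes whose pattern over the 8 libraries was most like each of the 3 differed between them. By Pearson correlation of log2(FPKM + 1), the 5 named genes closest to Mif were C1qbp, Pebp1, Rpl28, Ncl and Cdk4, with r of 0.993 to 0.995. C1qbp, a mitochondrial matrix protein gene, was at 7.39 ± 1.33 FPKM in Nynrin-KO and 52 ± 22.1 FPKM in WT, and Cdk4, a G1 cyclin-dependent kinase gene, at 33.3 ± 7.01 FPKM in Nynrin-KO and 171 ± 74.7 FPKM in WT. All 5 had their highest level in WT1 and their lowest in KO3, as Mif had. Closest to Ddt were Gpn3, Snord43, Dnajc8, Armc1 and Foxp1 (r of 0.951 to 0.979), whose log2 differences ran from -0.36 to -0.10, none past the threshold. Closest to Cd74 were H2-Aa, Hbp1, Tmem159, Add3 and Faf2 (r of 0.954 to 0.977), whose log2 differences ran from 0.31 to 1.12. With 8 libraries in 2 groups, such values follow the difference between the groups to a large extent, and the libraries share depth and composition, so they are given as a description with no test.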

How the data were processed

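The authors deposited a table of 48500 genes with a value column for each of 8 libraries made with the Smart-Seq V4 kit, per the labels' protocols. The unit was taken to be FPKM, since deposited value times the length in kb of the longest GENCODE M21 transcript summed to 999268 to 999549 in each column. Whole reads within 0.1 were recovered for 99.4% to 99.5% of values checked. Per the submitters' processing notes, the build was mm10 and the tools were Bowtie 0.12.9, Cufflinks 2.1.1 and HTSeq, without roles. The sources used here do not give the counting rule, the strand or the handling of multiple matches.

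Identifiers matched GENCODE M21 for 99.5% of genes, and coordinates count from 1. A gene was tested where 4 or more of the 8 libraries reached 1 FPKM. The test was limma 3.58.1 in R 4.3.3, two-sided, on log2(FPKM + 1), with group as the only term and the trend and robust options. P-values were adjusted over all 12524 genes by the Benjamini-Hochberg method, with a threshold of 0.05. A gene can pass the filter through 1 group alone, and the scale understates changes of low genes. Copies were searched with blastn 2.17.0, promoters came from RefSeq (GRCm38.p6), and the rest used Python 3.11.15, pandas 2.3.3 and matplotlib 3.10.9. Levels that 3 reads give cover counting error only, since PCR copies are not independent molecules.

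The members and lists were chosen with earlier results of these data known. Genes named were every receptor gene, up to 4 members with the smallest p from each other list, the expressed neighbours, up to 5 copies and the 5 genes most similar to each member whose larger group mean reached 5 FPKM. Alternatives covered the pseudocount, filter, scaling, limma options, weights, replicate block, libraries left out, the Gm10800 level, voom on recovered reads and the threshold.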

Additional observations from a re-analysis of the deposited data

Results flagged for a closer look

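Among 46 genes checked in both groups, 92 groups of 4 libraries in all, 4 held a library far from the other 3, where chance flags about 1 group in 20. Mif stood at 761 FPKM in WT1, far above the other WT libraries at 298 to 331 FPKM. Without WT1 the log2 difference of Mif was -2.79, beside -3.11 with all 8 libraries. Cxcr4 stood at 10.4 FPKM in WT3, below the other WT libraries. Sp1 stood at 2.43 FPKM in KO4, below the other Nynrin-KO libraries. Syk stood at 12.1 FPKM in WT4, above the other WT libraries, and WT4 also had the highest WT levels of Cd74 and H2-Aa. No cause was tested for any of these.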

How the results depend on the processing

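Over 23 alternatives the log2 difference of Mif was -3.43 to -2.61, each within 1 SD of the value given, and that of Ddt was -0.78 to -0.07 with none past the threshold. Cd74 passed under quantile normalization (1.63), median-ratio scaling (1.24), scaling without Gm10800 (1.22) and voom (1.25), and with the replicate number as a block (1.25, limma adjusted p = 0.0411). With each library left out in turn, Cd74 ran from 0.97 to 1.58. The numbers of genes changed, higher and lower were 1698, 790 and 908 with no filter, 1814, 841 and 973 without WT1 and KO1, 698, 171 and 527 in the 5 libraries high in Gm10800, and 1454, 671 and 783 at an adjusted p of 0.01. With each library left out they ran from 2358 to 3606, 1020 to 1875 and 1204 to 1852. The cause was not tested beyond what each setting does by construction, which is to test more genes, use fewer libraries or set a stricter threshold. Voom on the recovered reads called 4804 genes. Same-numbered libraries deviated with correlations of -0.213, -0.389, 0.329 and 0.00756, which cannot settle whether the numbers pair the libraries. The replicate block gave 2838 genes changed. The sign turned for Cxcr4 without KO2 (-0.04), without WT3 (-0.16, in a range of -0.16 to 0.19 over libraries left out), without WT3 and KO3 (-0.024), in the 5 libraries (-0.060) and with Gm10800 as covariate (-0.13). It turned for Gstt3 under quantile normalization (-0.020), array weights (-0.26) and voom (-0.35), without WT3 (-0.34, in a range of -0.34 to 0.34) and without WT3 and KO3 (-0.36), for Gstt2 in the 5 libraries (0.071) and for Dnajc8 under quantile normalization (0.025). None of these passed the threshold. Of 631 values for the 28 other named genes past the threshold, 515 stayed past it, 116 did not and 0 turned sign. Depth limits Ddt, with 1 read in KO3 and in WT3.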
